A study of Mus musculus with 8 samples.

Results

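The replication-dependent histone genes were taken as every protein-coding gene of GENCODE mouse release M21 whose symbol begins with Hist1, Hist2, Hist3 or Hist4. This rule gave 67 genes of the 21951 protein-coding genes in that annotation, of which 6 encode H1, 18 encode H2A, 18 encode H2B, 12 encode H3 and 13 encode H4. Chromatin accessibility at their promoters was read from lists of ATAC-seq peaks. In this assay a transposase inserts adapters into open chromatin, and a peak is a stretch with more sequenced fragments than a single background set for the whole genome. All libraries came from SN4741, labelled as wild-type mouse neural precursor cells, a line that was derived from the substantia nigra of embryos carrying a temperature-sensitive SV40 T antigen (tsA58) under the tyrosine hydroxylase promoter. It is described as clonal and, by karyotype, as polyploid and unstable. There were 4 libraries of cells grown at 37 °C in 10% serum, where they stay undifferentiated, and 4 of cells held for 48 h at 39 °C in 0.5% serum, with 50000 cells in each aliquot. Temperature and serum therefore changed together and cannot be told apart. No source used here states that the replicates were separate cultures, so p-values measure the spread between these libraries, which may be technical.

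Replication-dependent histones package newly made DNA, and their genes are transcribed mainly while a cell copies its genome. The genes are short and without introns in their classic form, lie in clusters, and are often arranged head to head so that an H2A gene and an H2B gene share the DNA between them. Their transcripts end in a conserved stem-loop, bound by the protein encoded by Slbp, in place of a poly(A) tail. Transcription is driven at histone locus bodies, nuclear bodies built on the protein encoded by Npat, and each histone type carries its own promoter elements.

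Of the 67 genes, 54 lay in the Hist1 cluster on chromosome 13, 10 in Hist2 on chromosome 3, 2 in Hist3 on chromosome 11 and 1, Hist4h4, on chromosome 6. Members of Hist1 fell into 4 groups with over 100 kb between them, at chr13:21715763-21837530 (18 genes), chr13:22035164-22043676 (5 genes), chr13:23531050-23764406 (29 genes) and chr13:23933773-23934851 (2 genes). Hist2 spanned chr3:96219865-96270132. Positions are on mm10 and counted from 1.

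The promoters of the H1, H3 and H4 genes with the strongest peaks, the stretch between the starts of the H2A and H2B pair with the strongest peak, and a promoter with no peak in any library show what the motifs of each type look like. Each promoter runs from 250 bases before to 50 bases from the annotated start, in the direction of transcription. Capitals mark matches, on either strand, to the TATA box (TATAAA), the element CCAAT, the octamer (ATTTGCAT), the H1 box (AAACACA), the core of the H4 site (GGTCCG), or a first (TTTGGCGC) and a second (TTTCCCGC) E2F motif, none of which contains another. The last promoter, of Hist1h4k, was chosen after its values were seen, as that of the gene with the largest difference in rank.
Hist1h1c, chr13:23738558-23738857, + strand: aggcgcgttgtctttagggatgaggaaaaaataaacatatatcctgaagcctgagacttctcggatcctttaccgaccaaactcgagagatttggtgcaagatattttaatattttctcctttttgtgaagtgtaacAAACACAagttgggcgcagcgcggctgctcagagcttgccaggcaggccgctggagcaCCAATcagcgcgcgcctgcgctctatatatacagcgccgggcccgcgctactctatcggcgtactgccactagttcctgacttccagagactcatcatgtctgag
Hist2h3c2, chr3:96239078-96239377, − strand: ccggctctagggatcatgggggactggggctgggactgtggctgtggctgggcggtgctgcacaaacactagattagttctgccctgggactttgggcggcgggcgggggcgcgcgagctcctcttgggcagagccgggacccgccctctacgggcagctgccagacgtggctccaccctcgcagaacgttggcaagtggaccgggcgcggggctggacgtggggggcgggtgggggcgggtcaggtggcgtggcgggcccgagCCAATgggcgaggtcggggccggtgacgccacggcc
Hist1h4m, chr13:21811496-21811795, + strand: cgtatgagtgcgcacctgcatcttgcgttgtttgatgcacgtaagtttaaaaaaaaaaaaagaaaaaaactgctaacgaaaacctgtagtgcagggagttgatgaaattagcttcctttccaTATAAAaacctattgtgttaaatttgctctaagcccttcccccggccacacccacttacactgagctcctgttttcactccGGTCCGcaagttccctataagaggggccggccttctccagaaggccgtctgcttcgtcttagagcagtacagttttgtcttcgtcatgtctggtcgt
Hist1h2an to Hist1h2bp, chr13:21787218-21787461, + strand: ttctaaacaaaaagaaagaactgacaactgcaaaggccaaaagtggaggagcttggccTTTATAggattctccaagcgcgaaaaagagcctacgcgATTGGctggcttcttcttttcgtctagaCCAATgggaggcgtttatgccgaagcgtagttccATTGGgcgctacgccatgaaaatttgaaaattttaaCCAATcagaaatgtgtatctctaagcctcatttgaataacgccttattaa
Hist1h2ba, chr13:23934107-23934406, − strand: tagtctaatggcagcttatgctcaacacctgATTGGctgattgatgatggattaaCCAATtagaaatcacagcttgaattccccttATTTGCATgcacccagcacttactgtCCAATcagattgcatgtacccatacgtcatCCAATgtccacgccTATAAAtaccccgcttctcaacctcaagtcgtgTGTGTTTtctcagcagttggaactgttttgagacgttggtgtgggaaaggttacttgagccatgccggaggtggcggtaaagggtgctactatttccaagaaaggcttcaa
Hist1h4k, chr13:21750456-21750755, − strand: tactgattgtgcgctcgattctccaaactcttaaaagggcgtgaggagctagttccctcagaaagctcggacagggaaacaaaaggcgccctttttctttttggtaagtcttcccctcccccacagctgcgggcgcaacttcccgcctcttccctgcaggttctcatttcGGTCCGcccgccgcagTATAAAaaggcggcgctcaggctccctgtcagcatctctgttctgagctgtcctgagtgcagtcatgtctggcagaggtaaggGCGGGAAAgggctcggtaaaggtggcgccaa

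The H1 promoter holds the H1 box and a CCAAT element. In the stretch between Hist1h2an and Hist1h2bp, 4 CCAAT elements stand beside 1 TATA match. The Hist1h4m and Hist1h4k promoters each hold the H4 site and a TATA match, and Hist1h4k also holds the second E2F motif past its start codon. The Hist2h3c2 promoter holds 1 CCAAT element and none of the other motifs. The Hist1h2ba promoter, which had no peak, holds TATA, octamer and CCAAT matches and letters of the H1 box on the opposite strand.

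Across all members, these letters divided by histone type. GGTCCG was found in 12 of 13 H4 promoters, in 2 of 12 H3 promoters, in 1 of 18 H2B promoters and in no H1 or H2A promoter, against 9.60% of 21938 protein-coding promoters of the same length. AAACACA was found in 4 of 6 H1 promoters, in 5 of the other members and in 6.40% of all promoters. The octamer was found in 7 of 18 H2A and 8 of 18 H2B promoters, in none of the other types, and in 1.57% of all promoters. CCAAT was found in all 18 H2A and all 18 H2B promoters, in 11 of 12 H3 and in 4 of 13 H4, against 39.0% of all promoters. TATAAA was found in 37 of the 67 and in 12.6% of all promoters. TTTCCCGC was found in 3 H4 promoters and in 1.34% of all promoters, and TTTGGCGC in no member and in 0.693% of all promoters. Median GC content was 45.3% in the members' promoters and 55.0% over all promoters. A histone stem-loop was found within 100 bases of the end of the gene model in 37 of the 67 members and in 0.169% of all genes. When the whole model was searched, 63 of the 67 held one, against 0.346% of all genes, and the most frequent form, in 41 members, was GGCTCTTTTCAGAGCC. These matches are descriptions of the reference sequence and not of bound sites.

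**Figure D1:**
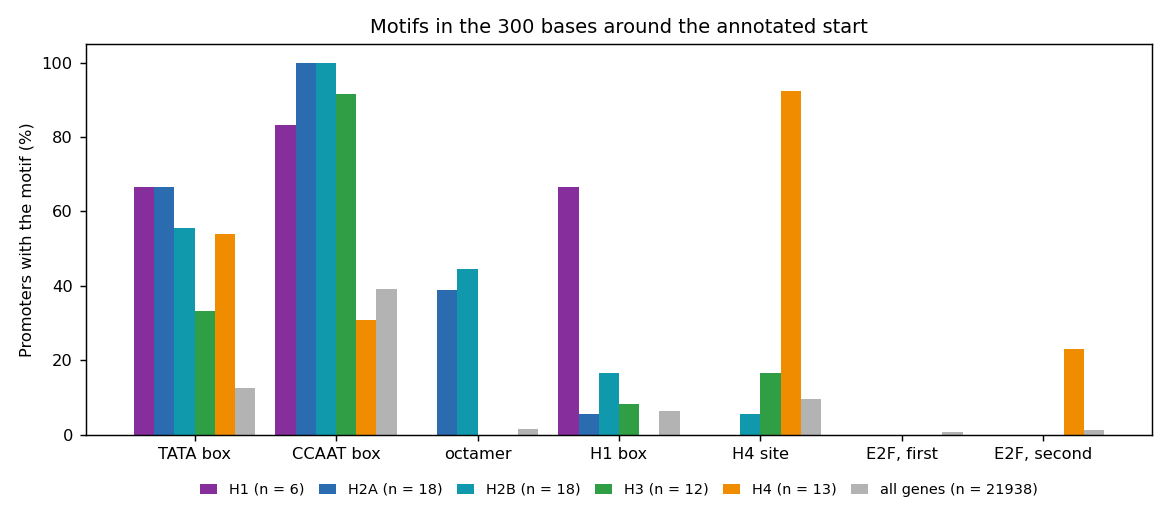
Share of promoters (%, y axis) that hold each of 7 motifs (x axis), for H1, H2A, H2B, H3 and H4 genes and for all protein-coding genes (grey). The H4 site stands at 92.3% of H4 genes, the H1 box at 66.7% of H1 genes, and the octamer is seen among H2A and H2B genes.

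The libraries held 49.8 to 169 M fragments after the peak caller removed redundant ones, and 54845 to 92013 peaks. Replicates 1 and 4 at 37 °C were deep, at 169 and 158 M fragments, and the other 6 held 49.8 to 71.2 M. Since heights and q-values were not scaled for depth, each library was reduced to ranks. Neural precursor markers had a promoter peak in all 8 libraries at 5 of 8 genes (Nes, Sox2, Pax6, Msi1 and Vim, with none at Fabp7), dopaminergic neuron markers at 4 of 8 (Th, Pitx3, Nr4a2 and Foxa2, with none at Ddc or Slc18a2), and germ cell markers at 0 of 4, with a peak in 3 libraries at 37 °C for Stra8. Over all protein-coding genes the share was 59.9%, and the marker counts were not used to name the cells.

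A promoter peak was a peak overlapping the 1 kb on either side of an annotated transcription start. It was called in all 8 libraries at 62 of the 67 histone genes (92.5%), whereas 59.9% of all protein-coding genes had a peak in all 8. No histone gene was called in all 4 libraries at 37 °C and in none at 39 °C, a pattern seen at 1.46% of all protein-coding genes, and none showed the opposite pattern, seen at 0.0137%. These counts include broad peaks whose summit lay at a neighbour. With the summit itself required within 1 kb, 36 of the 67 histone genes (53.7%) had a peak in all 8 libraries, against 56.0% of all protein-coding genes. Under that rule Hist2h3b and Hist2h3c2 were called only at 37 °C, and Hist1h2ab, Hist1h3g, Hist1h4k and Hist2h2aa2 only at 39 °C, patterns seen at 1.24% and 0.137% of all genes, and all 6 had a peak overlapping their window in all 8 libraries. The 3 genes without a peak in any library were the testis-specific members: Hist1h1t, a linker histone of the male germ line, and the adjoining pair Hist1h2aa and Hist1h2ba, which encode the testis forms of H2A and H2B. The gene next to Hist1h1t, Hist1h4c, had a peak in all 8 libraries.

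Hist1h1d and Hist3h2ba were called in 4 libraries at 37 °C and in 2 at 39 °C. Hist3h2ba had weak peaks throughout. The within-list percentile places a peak by its −log10 q among all peaks of its library, with 100 for the strongest. For Hist3h2ba it was 42.0, 31.6, 25.5 and 39.8 in replicates 1 to 4 at 37 °C, and 7.84 and 8.51 in replicates 1 and 3 at 39 °C, with no peak in replicates 2 and 4. The peak counted for Hist1h1d belonged to its neighbour Hist1h4f, and in replicates 3 and 4 at 39 °C it stopped short of the window. The annotated start of Hist1h1d lay 1828 bp from its start codon, around which a separate peak was called in all 8 libraries, at the 94.7, 94.1, 92.7 and 95.6 percentile at 37 °C and the 87.1, 88.1, 88.5 and 83.0 percentile at 39 °C. Likewise, Hist1h2be started 35168 bp from its start codon, so that its promoter peak was that of Hist1h1e. At 60 of the 67 genes, the annotated start lay within 100 bp of the start codon. With start codons in place of annotated starts, a choice made after the data were seen, 63 of the 67 genes had a peak in all 8 libraries.

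Histone promoters rarely had a peak to themselves. The 62 to 64 members called in a library had 31 to 33 distinct peaks at 37 °C and 34 or 35 at 39 °C, and 51 to 53 members at 37 °C and 47 to 50 at 39 °C shared their peak with another member. In replicate 1 at 37 °C, the 62 members called in all 8 libraries had 30 distinct peaks, and the 13145 protein-coding genes called in all 8 had 11483. All 12 of the head-to-head pairs that had peaks shared 1 peak in each of the 8 libraries, and over all 13 pairs the starts lay 176 to 660 bp apart. The pair without a peak was Hist1h2aa and Hist1h2ba. The arrangement with the widest peak on average over the 8 libraries was that of Hist1h2ae, Hist1h2bg, Hist1h2bf, Hist1h2ad and Hist1h3d, 2 H2A, 2 H2B and 1 H3 gene, which lay in 1 peak in every library. That peak was 8490, 8025, 7447 and 8398 bp wide in replicates 1 to 4 at 37 °C and 7267, 7279, 7075 and 6698 bp wide at 39 °C, and all 4 widths at 39 °C were below those at 37 °C. The median width over all genes tested was also lower at 39 °C, and relative to the median gene the log2 width of this set differed by 0.05 (limma adjusted p = 0.572). In each library, 46 to 54 members had their whole gene model inside the peak, so the signal covered coding sequence as well as the promoter.

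Peaks covered more of the first 3 Hist1 groups and of Hist2 than of the whole chromosomes, and none of the fourth Hist1 group, the testis pair. The groups were cut from first to last gene and are dense in starts, while a chromosome includes stretches without genes. No other stretch of like gene density was compared. At 37 °C they took up 33.0% ± 1.92 (SD, n = 4) of the first group of Hist1, 78.1% ± 4.62 of the second and 29.2% ± 2.22 of the third, against 3.58% ± 0.637 of chromosome 13. At 39 °C the shares were 25.2% ± 1.66, 61.2% ± 1.63 and 24.7% ± 1.54, against 2.83% ± 0.391 of the chromosome. Hist2 had 40.8% ± 3.54 at 37 °C and 33.6% ± 2.38 at 39 °C, against 3.27% ± 0.623 and 2.42% ± 0.309 of chromosome 3. The number of peaks differed by less than its spread, with 13.5 ± 1.00 and 13.5 ± 0.577 in the first group of Hist1 and 21.5 ± 1.73 and 21.0 ± 0.816 in the third.

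Because of the shared peaks, the 62 genes called everywhere carried only 34 separate sets of values. In 19 of these sets, 2 to 5 genes had the same peaks in all 8 libraries, and in 15 a gene stood alone. Values given below for 1 gene of a set hold for the others.

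**Figure D2:**
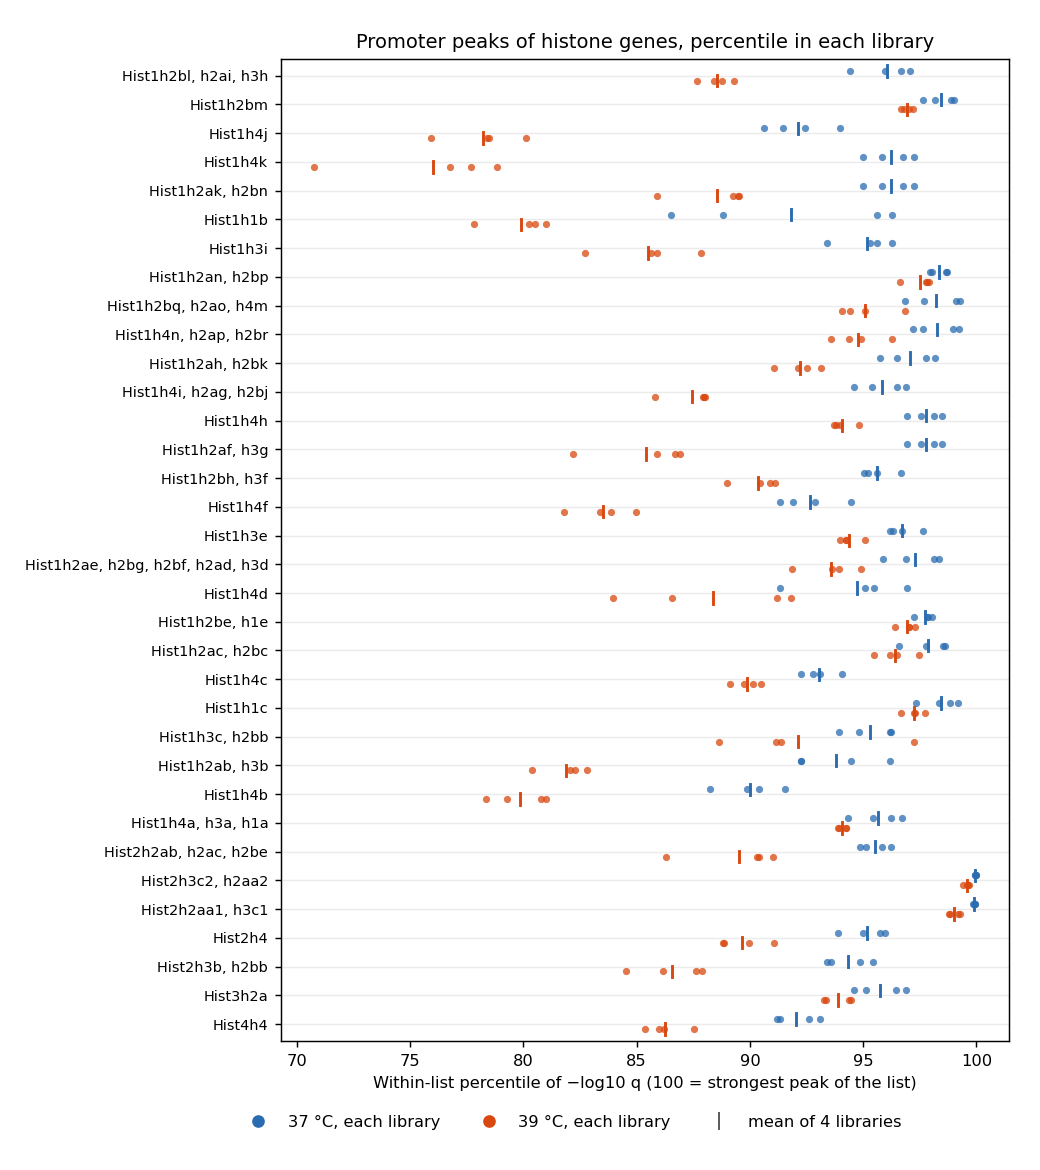
Within-list percentile of the promoter peak (x axis, 100 is the strongest peak of a list) in each of 4 libraries at 37 °C (blue) and 4 at 39 °C (orange), with vertical bars at the means, for the 34 sets of histone genes with a peak in all 8 libraries (y axis, in cluster order). The means at 39 °C lie below those at 37 °C in all 34 sets, with the widest gap at Hist1h4k. Percentiles depend on list length, which was 74026 to 92013 peaks at 37 °C and 54845 to 68410 at 39 °C. The median over all genes tested was also lower at 39 °C.

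The 2 strongest peaks lay in Hist2. The peak over Hist2h3c2, an H3 gene, and Hist2h2aa2, an H2A gene, ranked 27th, 32nd, 53rd and 27th of all peaks in replicates 1 to 4 at 37 °C, and 222nd, 231st, 281st and 329th at 39 °C. The mirror-image peak over Hist2h2aa1 and Hist2h3c1 ranked 47th, 74th, 122nd and 63rd at 37 °C and 797th, 537th, 479th and 638th at 39 °C. Within the first peak the summit also lay elsewhere, at 32, 32, 26 and 32 bp from the start of Hist2h3c2 at 37 °C and at -1165, -1165, -1173 and -1168 bp, upstream of it, at 39 °C, on the side of Hist2h2aa2. These 4 genes are near copies, and 77.6% and 78.5% of the 50-base stretches around Hist2h3c2 and Hist2h3c1, and 57.2% and 54.4% around Hist2h2aa2 and Hist2h2aa1, occurred more than once in the genome. How reads that fit several places were shared between such copies is not given in the sources used here, so the values of each copy are uncertain.

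Among the other types, the highest mean percentile belonged to Hist1h1c for H1, Hist1h2bp for H2B and Hist1h4m for H4. Hist1h1c, which encodes a linker histone, stood at 99.2, 98.3, 97.3 and 98.8 at 37 °C and at 97.3, 97.7, 97.3 and 96.7 at 39 °C, and the groups overlapped. The Hist1h2an and Hist1h2bp pair stood at 98.7, 98.0, 97.9 and 98.7 at 37 °C and at 97.8, 97.8, 97.9 and 96.6 at 39 °C. The groups did not overlap, with 97.95 the lowest at 37 °C and 97.89 the highest at 39 °C. Ranked only among genes with a promoter peak in all 8 libraries, the pair overlapped between temperatures. Hist1h4m, which shared its peak with Hist1h2ao and Hist1h2bq, stood at 99.3, 97.7, 96.9 and 99.1 at 37 °C and at 94.4, 96.8, 95.1 and 94.1 at 39 °C. That stretch has a near copy over Hist1h4n, Hist1h2ap and Hist1h2br, and 92.0% to 100% of the 50-base stretches around these 6 genes occurred more than once.

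The lowest of each type among members called everywhere were Hist1h1b, Hist1h2ab, Hist2h2bb, Hist1h3b and Hist1h4b. Hist1h4b, an H4 gene with a peak of its own, stood at 90.4, 89.9, 88.2 and 91.5 at 37 °C and at 81.0, 80.8, 79.3 and 78.3 at 39 °C. Hist1h2ab and Hist1h3b shared a peak at 96.2, 92.3, 92.3 and 94.5 at 37 °C and at 82.3, 82.1, 82.8 and 80.4 at 39 °C. Hist2h2bb, which shared its peak with Hist2h3b, stood at 94.9, 93.6, 93.4 and 95.5 at 37 °C and at 87.6, 87.9, 86.2 and 84.5 at 39 °C. In these 3 sets no library at 39 °C reached the lowest at 37 °C, which was also so for the median percentile over all genes tested. Ranked only among the genes tested, the 3 sets did not overlap either, a pattern seen at 10.6% of those genes. The linker histone gene Hist1h1b varied most within 37 °C, at 95.6, 88.8, 86.5 and 96.3, where the high values belong to the 2 deep libraries, and stood at 80.2, 80.5, 81.0 and 77.8 at 39 °C.

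Outside the large clusters, Hist3h2a on chromosome 11 stood at 96.9, 95.1, 94.6 and 96.4 at 37 °C and at 94.5, 94.4, 93.3 and 93.4 at 39 °C. Hist4h4, the H4 gene on chromosome 6, stood at 92.6, 91.3, 91.2 and 93.1 at 37 °C and at 87.5, 86.2, 86.0 and 85.4 at 39 °C. In both genes the 4 percentiles at 39 °C lay below all 4 at 37 °C, as did the median percentile over all genes tested. Ranked only among genes with a promoter peak in all 8 libraries, the groups overlapped at Hist3h2a. At Hist4h4 these ranks did not overlap, a pattern seen at 10.6% of those genes.

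Promoter peaks in general stood lower in their lists at 39 °C, with the median over the 13145 genes tested at 90.6 to 92.2 at 37 °C and 87.0 to 89.4 at 39 °C. The median over the 62 histone genes was 95.0 to 97.2 at 37 °C and 90.1 to 93.2 at 39 °C. To set the general shift aside, genes were ranked in each library among the 13145 genes with a promoter peak in all 8, and the ranks were compared as normal scores, which express a rank as the quantile of a standard normal distribution. Histone genes ranked lower at 39 °C at 42 of the 62 tested and higher at 0, by limma with Benjamini-Hochberg adjustment over all 13145 genes at 0.05. The same call was made at 7.79% of all genes tested for a lower rank and at 8.68% for a higher one. All 62 differences were below 0, with a median of -0.52, and the median over all genes tested was 0.02. The ranks of the 2 temperatures did not overlap, with 39 °C lower, at 44 of the 62, against 10.6% of all genes tested. Counted once for each separate set of peaks, a unit chosen after the data were seen, 22 of 34 sets ranked lower at 39 °C and all 34 differences were below 0. Without the 2 deep libraries, 34 of the 62 genes ranked lower, against 4.50% of all genes in that fit, and 56 of the 62 differences were below 0.

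The calls were spread over the types, with 1 of 4 H1 genes tested, 13 of 17 H2A, 10 of 16 H2B, 9 of 12 H3 and 9 of 13 H4. Median differences were -0.12 for H1, -0.55 for H2A, -0.47 for H2B, -0.62 for H3 and -0.50 for H4, and types share peaks with each other, so these are not independent. By position, all 10 Hist2 genes and all 5 genes of the second Hist1 group were called lower, as were 12 of 18 in the first group, 14 of 27 in the third and Hist4h4, but not Hist3h2a.

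**Figure D3:**
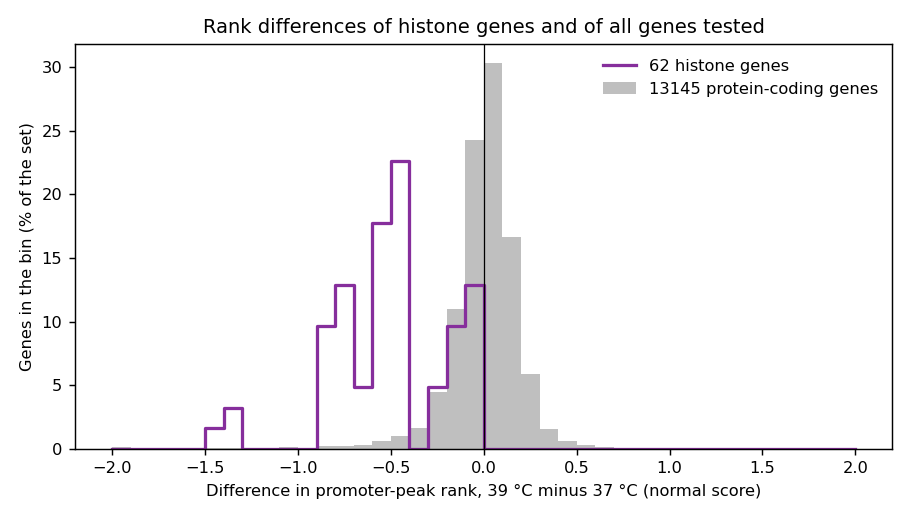
Difference in promoter-peak rank, 39 °C minus 37 °C, as normal scores (x axis, bins of 0.1, with values past the ends put in the outermost bins) against the share of genes in each bin (y axis, %), for 62 histone genes (purple line) and 13145 protein-coding genes (grey bars). All histone genes lie left of 0, with a median of -0.52, and the grey bars centre near 0.

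Hist1h4k, an H4 gene, had the largest difference. Its promoter peak stood at the 96.8, 95.9, 95.0 and 97.2 percentile at 37 °C and at 77.7, 76.7, 78.8 and 70.7 at 39 °C. Among the genes tested its mean rank percentile was 75.8 at 37 °C and 21.7 at 39 °C, a difference of -1.49 ± 0.0627 (SE) in normal score with a limma adjusted p of 1.18e-06. The width of the peak differed as well, at 6233, 6070, 5939 and 6310 bp at 37 °C and 1503, 1829, 1617 and 1537 bp at 39 °C. At 37 °C this was 1 peak that also covered Hist1h2ak and Hist1h2bn, an H2A and H2B pair, with its summit at -3265, -3248, -3248 and -3248 bp from the Hist1h4k start, which is 57 to 74 bp past the start of Hist1h2ak. At 39 °C it was called as 2 peaks in all 4 libraries, and the summit of the part at Hist1h4k lay 69 to 140 bp past its start. The rank of Hist1h4k at 37 °C was therefore the height of the shared peak at the H2A and H2B pair. That pair itself stood at 89.5, 89.5, 89.3 and 85.9 at 39 °C, a difference of -0.71 ± 0.0649 in normal score (limma adjusted p = 2.54e-04).

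Hist1h4h, Hist1h2af and Hist1h3g, an H4, an H2A and an H3 gene, showed the same arrangement. They lay in 1 peak of 8904, 8565, 6835 and 8853 bp at 37 °C. In all 4 libraries at 39 °C they lay in 2, with Hist1h4h in a peak of 2615, 2661, 2513 and 2412 bp and the other pair in a peak of 3163, 3268, 3066 and 2956 bp. At 37 °C the shared peak stood at 98.1, 97.6, 96.9 and 98.5, with its summit 143 to 192 bp past the start of Hist1h4h, so that the rank of Hist1h2af and Hist1h3g there was the height at the H4 gene. At 39 °C the part at Hist1h4h stood at 94.8, 94.0, 93.7 and 93.8, and that at Hist1h2af and Hist1h3g at 85.9, 86.7, 86.9 and 82.2. The differences in normal score were -0.50 ± 0.0687 for Hist1h4h (limma adjusted p = 0.00212) and -1.31 ± 0.0676 for the other 2 genes (limma adjusted p = 5.93e-06).

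Limiting promoter peaks to those with a summit within 1 kb of a start left 36 members in all 8 libraries, of which 27 ranked lower at 39 °C and 0 higher, against 8.59% and 7.07% of all 12287 genes in that fit. There were 24 sets whose peak held the same number of histone genes, by annotated start, in every library. Of these, 14 were called lower, against 7.79% of all genes tested, and 10 were not. Their median difference was -0.46, and 8 of the 10 sets whose number changed between libraries were called lower. For Hist1h4d, among the 24, and Hist1h4f, among the 10, this sorting rested on the distant annotated starts of Hist1h2be and Hist1h1d. Hist2h3c2 with Hist2h2aa2 differed by -0.84 ± 0.062 (limma adjusted p = 7.37e-05) and Hist2h2aa1 by -0.87 ± 0.077 (limma adjusted p = 2.06e-04), both with the uncertainty of near copies. The set of Hist1h2bg differed by -0.45 ± 0.102 (limma adjusted p = 0.0195), a call lost without replicate 4 at 37 °C (adjusted p = 0.0562), without replicate 4 at 39 °C (adjusted p = 0.0593) and without the 2 deep libraries (-0.27, adjusted p = 0.0808). Hist2h2bb differed by -0.55 ± 0.0565 (limma adjusted p = 4.59e-04) and Hist1h4b by -0.47 ± 0.0511 (limma adjusted p = 6.58e-04). Hist4h4, alone on its chromosome, differed by -0.28 ± 0.047 (limma adjusted p = 0.00558). Hist2h4, an H4 gene at the 95.7, 95.0, 93.9 and 96.0 percentile at 37 °C and 91.1, 90.0, 88.8 and 88.8 at 39 °C, differed by -0.42 ± 0.0618 (limma adjusted p = 0.00279). Of the 52 tested members with at most 50% repeated 50-base stretches around their start, 35 were called lower, against 7.79% of all genes tested.

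Hist1h1b had the largest SE among the histone genes tested. Hist1h1b differed by -0.75 ± 0.213 (limma adjusted p = 0.0415, and between 0.00509 and 0.0990 over the alternatives). The call was lost without replicate 1 or 4 at 37 °C and when any 1 of the 4 libraries at 39 °C was left out. It was also lost in limma with trend and robust variance (adjusted p = 0.0949) and with genes called in at least 2 libraries (adjusted p = 0.0650). In the 2 deep libraries its peak also covered Hist1h3i, with a summit at -2609 bp from its start. Hist1h2ab and Hist1h3b differed by -0.81 ± 0.103 (limma adjusted p = 0.00126), and their peak also covered Hist1h3c in replicate 1 at 37 °C.

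The 20 genes not called lower formed 12 sets. Hist1h2bp with Hist1h2an differed by -0.07 (95% confidence interval -0.20 to 0.06, limma adjusted p = 0.447), Hist3h2a by -0.09 (-0.25 to 0.08, adjusted p = 0.454), Hist1h4c by -0.10 (-0.21 to 0.00, adjusted p = 0.163), Hist1h2ac with Hist1h2bc by -0.18 (-0.41 to 0.05, adjusted p = 0.259) and Hist1h1c by -0.20 (-0.44 to 0.04, adjusted p = 0.214). These intervals leave room for differences of the size called at Hist4h4 in Hist1h2ac and Hist1h1c. Hist1h4m missed the threshold with a large and uncertain difference of -0.54 (-0.91 to -0.17, limma adjusted p = 0.0514) and passed without replicate 3 at 37 °C (adjusted p = 0.0194) or replicate 2 at 39 °C (adjusted p = 0.0492). Hist1h1c passed without replicate 3 at 37 °C, at -0.30 (limma adjusted p = 0.0334). With 1 library left out, differences ran from -0.30 to -0.11 for Hist1h1c and from -0.67 to -0.42 for Hist1h4m. They ran from -0.094 to -0.028 for Hist1h2bp and from -0.13 to -0.025 for Hist3h2a. Hist1h3e and Hist1h2bm missed the threshold narrowly, at limma adjusted p = 0.0510 and 0.0532.

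Histone promoter peaks were broad. Their median width was 5342.5, 5029, 4143 and 5273 bp in replicates 1 to 4 at 37 °C and 3743, 3572, 3124 and 3038.5 bp at 39 °C, while the median over all genes tested was 2721, 2318, 2099 and 2593 bp at 37 °C and 2209, 2134, 2004 and 1858 bp at 39 °C. Peaks of at least 5 kb numbered 12, 12, 6 and 13 among the distinct histone promoter peaks at 37 °C, and 4, 3, 2 and 1 at 39 °C. Among all peaks, the share of at least 5 kb was 3.68%, 2.14%, 1.51% and 2.72% at 37 °C and 1.77%, 1.54%, 1.14% and 1.03% at 39 °C. For the test, each library was centred on the median log2 width of all genes, since the 2 deep libraries had the widest median peaks. By limma with Benjamini-Hochberg adjustment, 11 of the 62 histone genes were narrower at 39 °C and 2 were wider, against 6.63% of all genes tested for narrower and 3.83% for wider. The median log2 difference over the 62 was -0.05, beside 0.05 over all genes tested. With 1 library left out, the median over the 62 ran from -0.063 to -0.0070, and without the 2 deep libraries it was -0.094. The narrower genes formed 7 sets and the wider 1. Among the 24 sets whose peak held the same number of histone genes in every library, 3 were narrower and 1 wider. Among the 10 sets whose number changed, 4 were narrower.

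**Figure D4:**
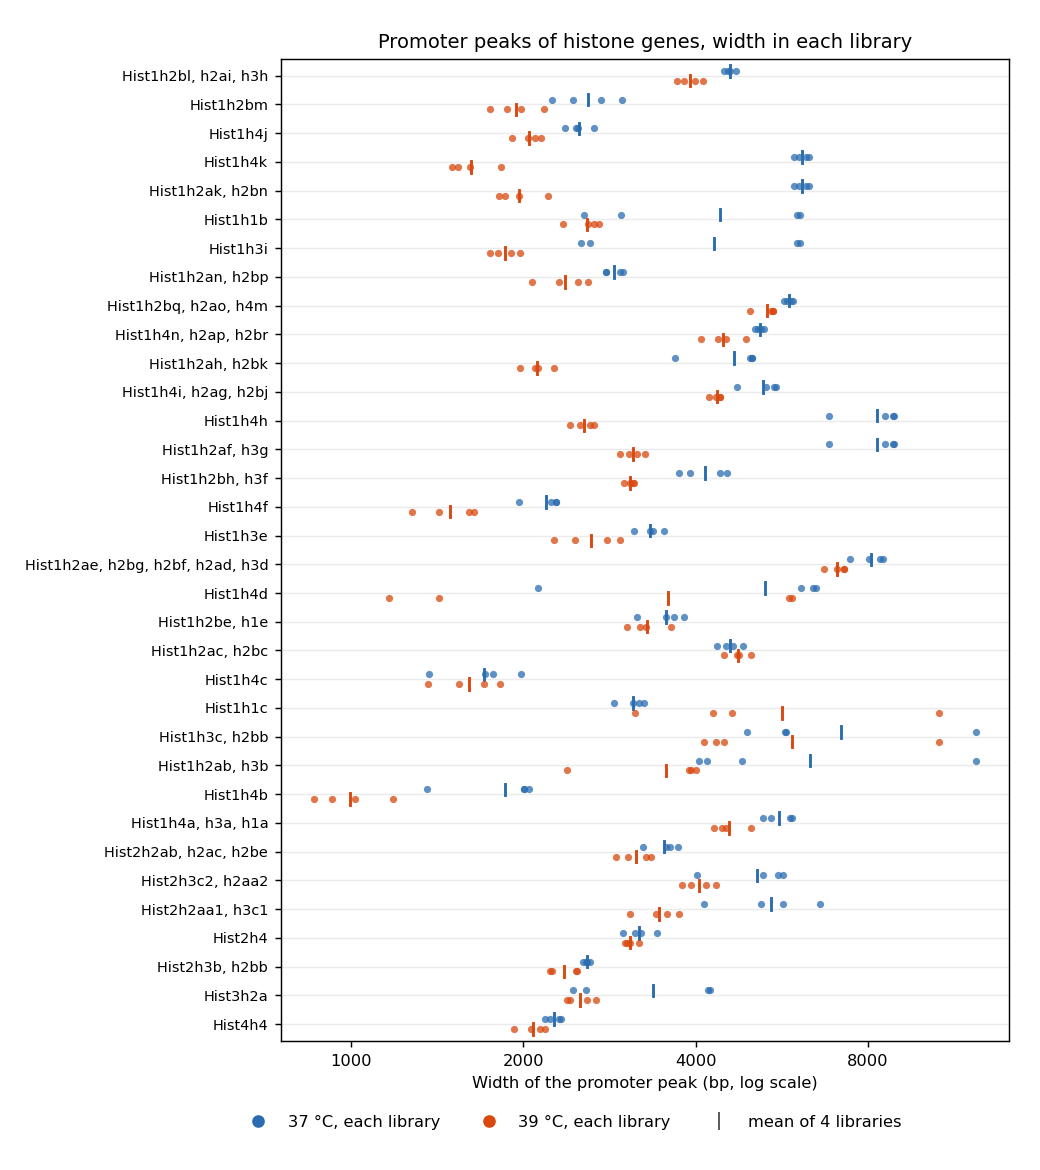
Width of the promoter peak in bp (x axis, log scale) in each of 4 libraries at 37 °C (blue) and 4 at 39 °C (orange), with vertical bars at the means, for the 34 sets of histone genes (y axis, in cluster order). Hist1h4k, Hist1h2ak, Hist1h4h and Hist1h2af have widths of 5939 bp and more at 37 °C and of at most 3268 bp at 39 °C.

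The largest differences in width were at the 2 stretches that were called as 1 peak at 37 °C and 2 at 39 °C. On the centred log2 scale Hist1h4k differed by -1.68 ± 0.0947 (SE, limma adjusted p = 2.19e-05), Hist1h4h by -1.45 ± 0.0609 (adjusted p = 5.43e-06), Hist1h2ak with Hist1h2bn by -1.41 ± 0.0749 (adjusted p = 1.77e-05) and Hist1h2af with Hist1h3g by -1.16 ± 0.0623 (adjusted p = 1.77e-05). The pair of Hist1h2ah and Hist1h2bk had widths of 4983, 5029, 3683 and 5018 bp at 37 °C and 2261, 2094, 2119 and 1974 bp at 39 °C, a difference of -0.89 ± 0.0746 (limma adjusted p = 2.10e-04). Hist1h4b, at 2006, 2006, 1360 and 2048 bp and then 1014, 927, 1183 and 861 bp, differed by -0.65 ± 0.12 (limma adjusted p = 0.0162). That call was lost without replicate 4 at 37 °C (adjusted p = 0.0533), with a replicate block (adjusted p = 0.0857) and without the 2 deep libraries (adjusted p = 0.122).

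The wider set was Hist1h2ac and Hist1h2bc, with 4653, 4525, 4369 and 4843 bp at 37 °C and 4990, 4719, 4767 and 4493 bp at 39 °C. The widths in bp overlapped, and the difference of 0.29 ± 0.0715 after centring (limma adjusted p = 0.0430) did not pass in 11 of the 16 alternatives. Hist1h1c had 3186, 3111, 2886 and 3255 bp at 37 °C and 10639, 4624, 3132 and 4284 bp at 39 °C. In replicate 1 at 39 °C its peak ran on over Hist1h3c and Hist1h2bb, and the difference of 0.95 ± 0.298 did not pass (limma adjusted p = 0.0732). Without that library it was 0.63 and passed (limma adjusted p = 0.0461). The peak of Hist1h4d, an H4 gene named after its values were seen, was called in 2 sizes within each temperature, at 6502, 6111, 2122 and 6405 bp at 37 °C and at 5891, 5831, 1422 and 1166 bp at 39 °C, with no call (limma adjusted p = 0.491). The wider peaks were also those found at the start codon of Hist1h2be. In replicates 1 and 2 at 37 °C their summit lay 4233 bp from the Hist1h4d start. Hist2h4 and Hist1h4c, the next in this direction, differed by 0.19 ± 0.0749 (limma adjusted p = 0.119) and 0.16 ± 0.0684 (limma adjusted p = 0.140).

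The standing of the histone promoter peaks was set beside the depth of each library. The median rank percentile of the 62 genes among the genes tested was 78.1 and 79.7 in the deep replicates 1 and 4 at 37 °C, 75.3 and 71.0 in replicates 2 and 3 at 37 °C, and 65.7, 64.3, 59.2 and 60.0 in replicates 1 to 4 at 39 °C. Replicates 2 and 3 at 37 °C held 64.2 and 49.8 M fragments, and the 4 libraries at 39 °C held 52.7 to 71.2 M. The part of depth in the difference was not tested beyond the fit without the 2 deep libraries. Between 59 and 61 of the 62 genes ranked above the median gene at 37 °C, and between 39 and 46 at 39 °C. In bulk samples, fewer cells with an open promoter and less opening per cell cannot be told apart.

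**Figure D5:**
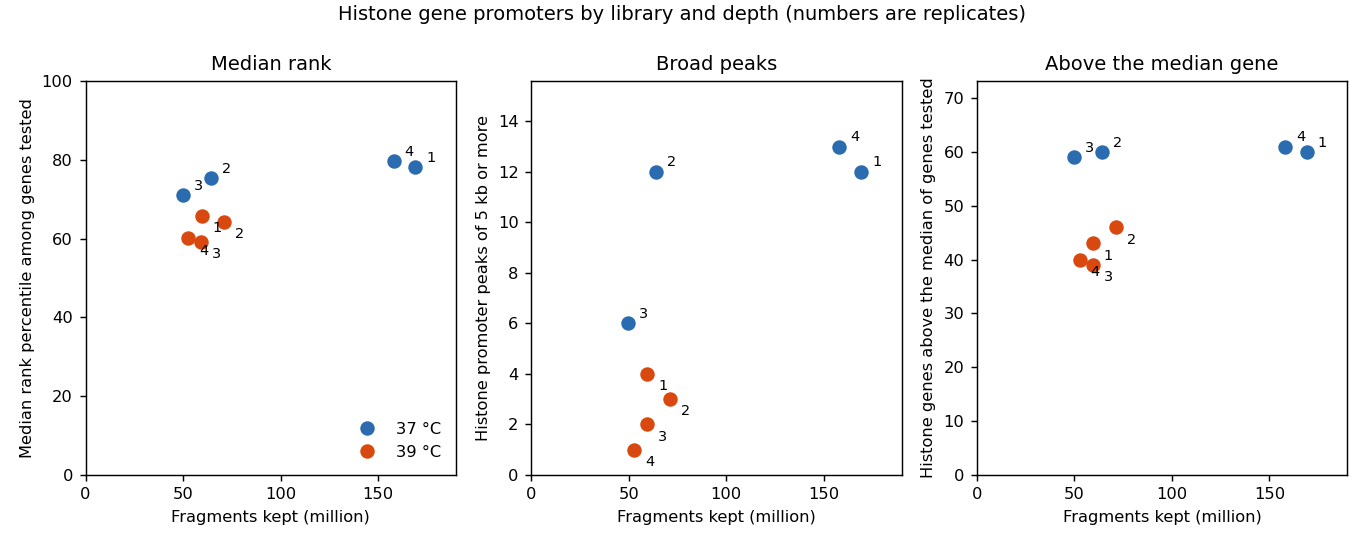
Fragments kept by the peak caller (x axis, M) against 3 measures of the histone genes in each library (blue 37 °C, orange 39 °C, numbered by replicate): median rank percentile among the genes tested, number of distinct promoter peaks of 5 kb or more, and number of the 62 genes that rank above the median gene. Replicates 2 and 3 at 37 °C lie in the depth range of the 39 °C libraries or below it and above them in all 3 measures.

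Other genes of the histone system, from lists chosen with earlier results of these data known, were compared in the same fit. All 11 genes of replacement histones, which are made outside S phase or in all phases, had a peak in all 8 libraries, against 59.9% of all protein-coding genes. Of these, 4 ranked lower at 39 °C and 2 higher, with a median of -0.09, against 7.79% lower and 8.68% higher of all genes tested. H2afx, whose product marks DNA breaks, differed by -0.39 ± 0.0578 (limma adjusted p = 0.00298), H1f0, a linker histone of resting cells, by -0.25 ± 0.0454 (adjusted p = 0.00701) and H3f3b by -0.20 ± 0.0413 (adjusted p = 0.0131), while H2afj rose by 0.26 ± 0.0538 (adjusted p = 0.0125). Of 17 genes for making and processing histone mRNA, 1 ranked lower and 1 higher, shares near those of all genes, and the median was -0.02. Another entry of that list, spelled Symplk, matched no symbol, and its gene was not analysed here. The lower one was Srrt, which acts on capped RNA, at -0.50 ± 0.0585 (limma adjusted p = 8.94e-04), and the higher one Cpsf3, which encodes the endonuclease that cuts histone pre-mRNA, at 0.20 ± 0.052 (adjusted p = 0.0300). Npat differed by 0.08 ± 0.0582 (limma adjusted p = 0.373) and Slbp by -0.06 ± 0.0438 (adjusted p = 0.335). None of 8 histone chaperone genes was called, by limma, with a median of -0.06. At an unadjusted p under 0.05 there were 1 lower, Chaf1a at -0.23 ± 0.0704, and 1 higher, Asf1a at 0.19 ± 0.0611, named after their values were seen, against 14.2% and 18.5% of all genes tested.

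Where the summit lay within 1 kb of the start, its position was described by type over the libraries of both temperatures, with no test. Paired genes give the same summit seen from opposite starts. The median over genes of their own median position was -272 bp, upstream of the start, for 14 H2B genes. It was above 0, downstream, for the other types, at 64.5 bp for 14 H2A genes, 84 bp for 10 H3, 92 bp for 11 H4 and 199.5 bp for 3 H1. Upstream medians were found at 11 of 14 H2B genes, 5 of 14 H2A, 4 of 10 H3, 1 of 11 H4 and 0 of 3 H1 genes. Over the 12 pairs and 8 libraries, 27 of 96 shared summits lay between the starts. Across all libraries, 42 to 47 members had their summit within 1 kb, so for the others the rank was that of a summit farther away, at another member or between genes.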

How the data were processed

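The authors aligned reads with Bowtie2 2.4.1 to mm10, handled them with SAMtools 1.15.1, Picard 2.26.11 and bedtools 2.30.0, and called peaks in each library separately with MACS3 3.0.0a7, per the labels and the file headers. Each line of a deposited list holds 1 peak, with position, summit, the pileup height (a signal not scaled for depth), the fold enrichment over 1 genome-wide background (the local background was switched off, per the file headers), and −log10 of the p- and q-values. No read counts were used. How reads matching several places were treated is not given in the sources used here.

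Starts came from GENCODE M21 and sequence from the mm10 reference. A peak within 1 kb of any start of a gene was a promoter peak, and the one with the highest −log10 q was kept. Within-list percentiles ran from the weakest peak to 100. Ranks as normal scores and log2 widths, centred on each library's median, were fitted with limma 3.58.1 in R 4.3.3 over 13145 genes, with Benjamini-Hochberg adjustment at 0.05. Tables were made in Python 3.11.15 with pandas 2.3.3, and the fits were tested on simulated data. Errors are SD over 4 libraries or the SE of the fit.

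Genes given by library were those called in fewer than 8 libraries, the highest and lowest of each type, the testis, Hist3 and Hist4 genes, up to 5 with the smallest p in each direction of each fit, and the 3 widest. Further genes in the text were named after their values were seen. The members and lists were chosen with earlier results of these data known. Alternatives changed the peak threshold, list length, window, starts, ranking, centring, variance model, libraries and replicate block. The result of 1 marker list is not reported here.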

Additional observations from a re-analysis of the deposited data

Results flagged for a closer look

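Among 79 groups of 4 libraries examined, 8 held a library flagged against the other 3 by Dixon's criterion, where chance would give about 3.95 if groups were independent. These groups share peaks and libraries, so they are not. The number of distinct histone promoter peaks at 39 °C was 35 in replicate 3 and 34 in each of the others. With 3 equal values any difference is flagged, so this flag rests on 1 peak. The peak of Hist1h2ab was 12351 bp wide in replicate 1 at 37 °C, where it also covered Hist1h3c, against 4052 to 4815 bp in the others, and 2383 bp wide in replicate 4 at 39 °C, against 3894 to 4009 bp. At 37 °C replicate 3, the shallowest library, had the narrowest peak of Hist1h4b, at 1360 bp against 2006 to 2048 bp, and of Hist1h2af, at 6835 bp against 8565 to 8904 bp. Replicate 4 at 39 °C, the library with the fewest peaks, had the narrowest peak of Hist1h4m, at 4984 bp against 5421 to 5466 bp. It also had the lowest percentile of Hist1h2bp, at 96.6 against 97.8 to 97.9, and of Hist1h2ak, at 85.9 against 89.3 to 89.5.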

How the results depend on the processing

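Peak lists carry no read counts, so depth enters through which peaks were called and how wide they were, and 2 libraries at 37 °C were much deeper than the rest. Of the values for single genes over all alternatives, 732 kept their direction and their side of the threshold, 42 lost the call, 11 gained it and 18 changed sign. The cause was not tested for any of them. With the summit required within 1 kb, 36 genes were called in all libraries, 42 in at least 2 at each temperature, 2 only at 37 °C and 4 only at 39 °C. In that fit 27 ranked lower and 7 were narrower, against 8.59% and 5.72% of all genes, and the median width at 37 °C was 4081.5 bp. With equal numbers of peaks the median percentile at 37 °C was 94.5. Ranked by percentile over all peaks of a list, 60 of 62 histone genes were lower at 39 °C, as were 7624 of all genes against 66 higher, and the median over all genes fell to -0.16, beside 1024 lower and 1141 higher in the fit reported. Counting sets once gave 22 lower and 7 narrower. Without centring, which left the median over all genes at -0.19 and called 9.96% of them narrower and 0.0533% wider, 24 histone genes were narrower and 0 wider. The same shift turned the widths of Hist2h2bb (-0.13), Hist1h4m (-0.13), Hist4h4 (-0.12), Hist2h4 (-0.052), Hist1h4c (-0.082) and the set of Hist1h2bg, Hist1h3d and Hist1h2ad (-0.19) negative. In the 6 libraries under 100 M fragments, 34 genes ranked lower, 9 were narrower and 0 wider, against 4.50%, 2.88% and 0.358% of all genes in that fit. There the ranks of Hist1h2bp (0.0097) and Hist3h2a (0.022) and the widths of Hist1h1b (0.012), Hist2h2bb (-0.015), Hist1h4m (-0.00088), Hist3h2a (0.11) and the set of Hist1h2bg, Hist1h3d and Hist1h2ad (-0.020) changed sign. With genes called in at least 2 libraries, 0 were wider, against 1.27% of all genes in that fit. Leaving out 1 library gave 33 to 48 genes ranked lower (33 without replicate 4 at 37 °C or replicate 4 at 39 °C), 10 to 12 narrower and 0 to 2 wider, and the width of Hist1h2bp ran from -0.091 to 0.0072, the latter without replicate 3 at 37 °C. Same-numbered libraries deviated together by correlations of 0.20, -0.11, 0.29 and -0.14, and differently numbered ones by -0.34 to 0.23. Not every library correlated best with its own number. The labels do not say whether the numbers pair the samples, and these few values cannot settle it. With the replicate block, 44 genes ranked lower, 8 were narrower and 0 wider, against 6.53%, 3.27% and 0.320% of all genes in that fit.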
